A study of Mus musculus with 20 samples.

Results

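The glutamate and GABA receptor genes are the genes for the subunits of the channels and G protein-coupled receptors that answer the main excitatory and inhibitory transmitters of the brain. They were taken from the mouse annotation by symbol: every autosomal protein-coding gene named Gria, Grik, Grid or Grm with a number, Grin with a number, or a name that starts with Gabr or Gabbr. The rule gave 43 of 21418 autosomal protein-coding genes: 3 AMPA, 5 kainate, 2 delta, 7 NMDA and 8 metabotropic glutamate receptor genes, 16 GABA-A and 2 GABA-B receptor genes. The rule used no measured value. The study mapped histone marks and transcription factors by chromatin immunoprecipitation and sequencing (ChIP-seq) in mouse embryos at embryonic day 13.5. H3K27ac (active promoters and enhancers), H3K4me1 (enhancers and promoter flanks), H3K4me3 (promoters) and H3K27me3 (Polycomb repression) were mapped in the medial ganglionic eminence (MGE) of C57BL/6 embryos. Those embryos were wild type or carried a conditional knockout of Nkx2-1 (Nkx2-1cKO), here called the mutant. NKX2-1 and LHX6, homeodomain factors that specify MGE cells, were mapped in wild-type CD-1 basal ganglia. The Cre line, the cells in which it acts and the number of pooled embryos are not given in the sources used here, and the file headers describe the ChIP alignments as merged. Each antibody and genotype has 1 deposited list of called regions, so no difference between genotypes has a replicate check and no test between genotypes was possible.

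AMPA, kainate and NMDA receptors are cation channels gated by glutamate, delta receptors bind glycine or D-serine and link to cerebellin proteins, and metabotropic receptors signal through G proteins. GABA-A receptors are chloride channels built from several subunit classes, and GABA-B receptors are obligate pairs of G protein-coupled subunits. The MGE is the birthplace of cortical interneurons and striatal and pallidal cells, most of which are still dividing or newly born at this age. H3K27me3 and H3K4me3 at the same promoter are known from genes that are silent but can be switched on later in the lineage.

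The genes were unusually long, with a median of 135 kb against 15.5 kb over all autosomal protein-coding genes, and 24 of them measured at least 100 kb. A promoter was called marked where a region came within 2.5 kb of any annotated start site of the gene. Covered length is the number of kb inside called regions within 10 kb of those start sites, or, where stated, within the whole gene with 10 kb on each side. Windows within 10 kb of the start sites ran from 20 kb to 85.5 kb per gene, so levels of different genes are compared as a share of the window.

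The stretches just upstream of the start sites show how different these promoters are as DNA. Each is the 200 bases before the gene's upstream-most start site on build NCBIM37 (mm9), read along the gene, with CpG dinucleotides in capitals, since CpG density is a known property of H3K4me3 promoters. Grik3 (chr4:125167744-125167943, plus strand) carried H3K4me3 and H3K27me3, Gria2 (chr3:80606714-80606913, minus strand) and Gabrg1 (chr5:71233857-71234056, minus strand) carried H3K4me3 without H3K27me3 in wild type, and Gabrr2 (chr4:33149774-33149973, plus strand) carried neither.
Grik3 upstream: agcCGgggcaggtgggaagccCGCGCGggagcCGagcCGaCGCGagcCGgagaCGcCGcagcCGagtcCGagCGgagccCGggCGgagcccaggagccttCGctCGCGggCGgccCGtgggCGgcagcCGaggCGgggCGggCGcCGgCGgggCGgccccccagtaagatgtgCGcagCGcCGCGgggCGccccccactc
Gria2 upstream: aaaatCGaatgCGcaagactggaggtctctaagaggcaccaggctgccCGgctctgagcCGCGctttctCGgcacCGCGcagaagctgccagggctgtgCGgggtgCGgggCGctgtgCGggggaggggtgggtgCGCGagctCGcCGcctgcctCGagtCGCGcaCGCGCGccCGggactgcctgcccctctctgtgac
Gabrg1 upstream: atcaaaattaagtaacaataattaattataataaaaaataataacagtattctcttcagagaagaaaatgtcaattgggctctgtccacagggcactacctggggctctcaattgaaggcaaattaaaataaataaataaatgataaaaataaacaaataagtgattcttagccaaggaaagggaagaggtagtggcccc
Gabrr2 upstream: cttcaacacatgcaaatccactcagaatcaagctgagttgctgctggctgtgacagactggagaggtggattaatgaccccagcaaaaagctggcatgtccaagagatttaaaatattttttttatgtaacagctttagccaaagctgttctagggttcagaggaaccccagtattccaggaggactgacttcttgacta
Grik3 had 34 CpGs in this stretch, Gria2 had 23, and Gabrg1 and Gabrr2 had 0. The 26 receptor genes with both H3K4me3 and H3K27me3 in wild type had a median of 11.5 CpGs (from 2 to 34), against 12 over all genes of that kind. The 11 with H3K4me3 and no H3K27me3 had a median of 14 (all such genes 13), and the 6 without H3K4me3 had a median of 1.5 (all such genes 1). The medians with and without H3K4me3 were far apart, as over all genes, while those with and without H3K27me3 were close and their ranges overlapped. Gabrg1 had H3K4me3 and no CpG in the stretch.

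Sequences at factor peaks are shown for 3 NKX2-1 peaks within 50 kb of a receptor start site that hold a motif core, for the 1 place in Grik3 where peaks of both factors overlapped away from H3K4me3, and for the LHX6 peak in Grik2. Each is 200 bases around the summit, plus strand, with cores in capitals: CACTTGA or CACTCAA, the core bound by NK2 factors such as NKX2-1, and TAATTA or TAATGA, the core of LIM homeodomain factors such as LHX6, on either strand.
Grin3b, NKX2-1, between genes, chr10:79449794-79449993: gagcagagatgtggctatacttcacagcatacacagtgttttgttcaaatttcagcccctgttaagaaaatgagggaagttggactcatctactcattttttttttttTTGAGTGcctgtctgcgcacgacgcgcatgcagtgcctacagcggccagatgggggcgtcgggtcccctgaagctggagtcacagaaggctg
Grm3, NKX2-1, intron, chr5:9541364-9541563: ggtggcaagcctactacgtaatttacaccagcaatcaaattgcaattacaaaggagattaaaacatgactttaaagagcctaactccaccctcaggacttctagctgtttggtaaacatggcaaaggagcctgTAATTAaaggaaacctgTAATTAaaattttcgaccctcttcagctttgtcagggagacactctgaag
Grik3, NKX2-1, upstream, chr4:125163968-125164167: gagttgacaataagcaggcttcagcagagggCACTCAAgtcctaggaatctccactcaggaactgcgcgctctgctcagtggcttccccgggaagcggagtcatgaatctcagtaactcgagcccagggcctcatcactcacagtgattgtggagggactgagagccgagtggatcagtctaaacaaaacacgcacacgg
Grik3, NKX2-1 and LHX6, intron, chr4:125281780-125281979: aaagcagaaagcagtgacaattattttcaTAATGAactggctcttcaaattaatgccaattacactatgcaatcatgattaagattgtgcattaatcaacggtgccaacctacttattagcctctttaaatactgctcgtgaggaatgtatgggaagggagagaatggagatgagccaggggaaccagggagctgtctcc
Grik2, LHX6, intron, chr10:49434815-49435014: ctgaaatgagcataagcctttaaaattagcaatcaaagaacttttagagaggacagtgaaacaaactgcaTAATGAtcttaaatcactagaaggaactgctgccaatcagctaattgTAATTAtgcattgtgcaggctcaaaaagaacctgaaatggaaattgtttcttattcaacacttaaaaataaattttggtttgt
Over all 5683 NKX2-1 peaks, 21.5% held an NK2 core and 25.8% a LIM core in this window, and over all 1651 LHX6 peaks 8.6% and 41.4% did. The values behind these peaks follow the promoter results.

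Receptor genes carried H3K27me3 at their promoters more often than autosomal protein-coding genes as a whole did. In wild-type MGE, H3K27me3 marked 26 of 43 receptor promoters (60.5%), against 21.4% of all autosomal protein-coding genes. H3K4me3 marked 37 (86.0%, against 65.9%), H3K4me1 36 (83.7%, against 66.3%) and H3K27ac 28 (65.1%, against 58.6%). All 26 promoters with H3K27me3 also had H3K4me3, as did 4345 of 4581 such promoters over all genes (94.8%). Both marks were thus present at 60.5% of receptor promoters, against 20.3% of all genes. The receptor share was also the higher one when only promoters with H3K4me3 were counted (70.3% against 30.8%) and, more narrowly, when only genes of at least 100 kb were counted (66.7% against 44.4%). Called bases of the marks overlapped at 25 of the 26 promoters, the exception being Gabrg3. In the mutant 28 of 43 receptor promoters had both (65.1%, against 23.4%), with overlap at all 28. In wild type, without the 3 genes that share the window with another gene's start site (Grin2d, Grin2c and Gabrg3), 23 of 40 had both. Of the 26 wild-type promoters with both, 17 also had H3K27ac (39.5% of receptor genes, against 13.9% of all genes). In the mutant 23 of the 28 had it (53.5%, against 17.8%). In tissue of mixed cells, marks on the same bases can come from different cells, and fewer marked cells cannot be told apart from less mark per cell. The receptor families differed in how many members carried H3K27me3, as the bars of promoter marks by family show.

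**Figure D1:**
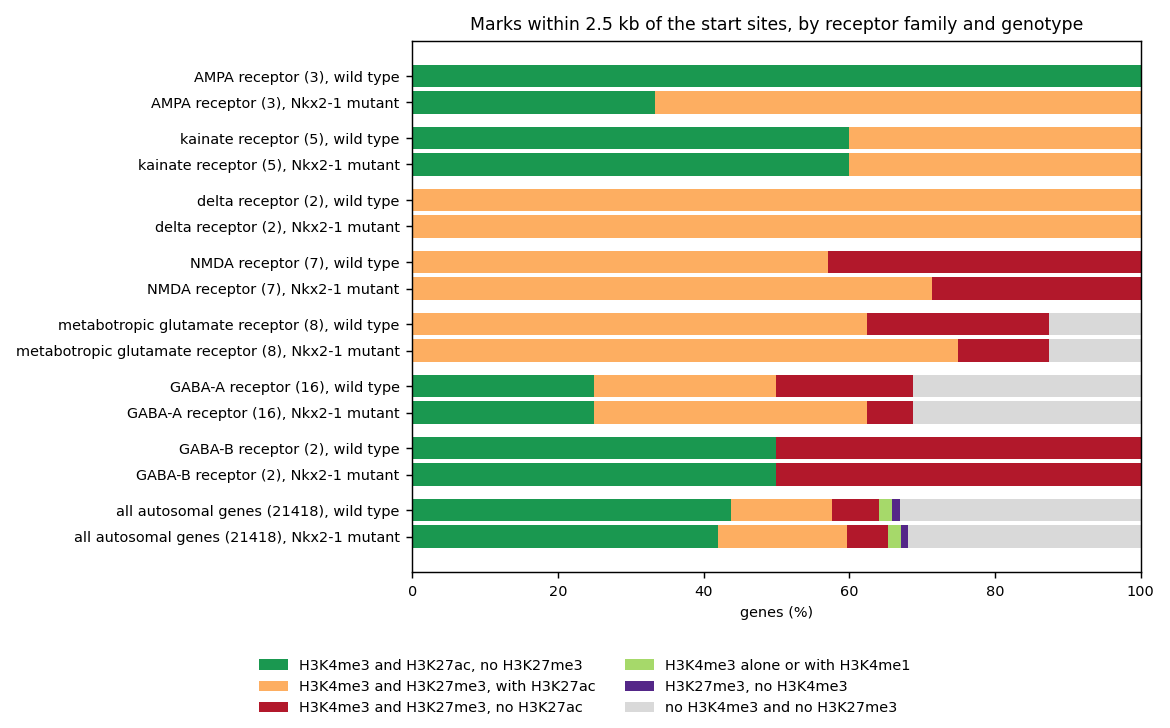
Share of genes (horizontal axis, %) in each combination of promoter marks, by receptor family and genotype, with the number of genes in parentheses and all 21418 autosomal protein-coding genes at the bottom. Each bar is 1 genotype. The 7 NMDA receptor genes all carried H3K4me3 with H3K27me3 in both genotypes, and the 3 AMPA receptor genes carried no H3K27me3 in wild type.

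The AMPA receptor genes, which encode the fast glutamate channels, were the family without promoter H3K27me3 in wild type. Gria1, Gria2 and Gria4 all carried H3K4me3 and H3K27ac, and none had a called H3K27me3 region within 10 kb. Gria2, whose edited subunit makes the channel impermeable to calcium, had 3.42 kb of H3K27ac in wild type against 3.57 kb in the mutant, and 5.55 kb and 6.01 kb of H3K4me3. Gria4, a subunit known from fast-spiking interneurons, had 2.54 kb and 2.78 kb of H3K27ac, and 3.98 kb and 3.82 kb of H3K4me3. Neither gene was called in any mark. In the mutant, H3K27me3 was called at the promoters of Gria1 (0.695 kb) and Gria2 (0.250 kb), with folds over input of 3.45 and 3.31. Those folds were above only 21.6% and 15.1% of mutant H3K27me3 regions, and the Gria1 region had a −log10 p of 7.9. Gria1 and Gria2 were the only receptor genes whose promoter had H3K27me3 in the mutant alone, 2 of 43, against 3.49% of all genes, and there was none with it in wild type alone (0.537%). Gria1 also gained H3K4me1, from 1.39 kb to 3.06 kb, the only receptor gene called higher in that mark within 10 kb (1.48% of all genes). A gene was called higher or lower where the longer covered length was at least 1.5 times the shorter and at least 1 kb longer, and no receptor gene was called lower in H3K4me1 (1.10%). With the windows cut to 5 kb, or counted as 1 span from first to last start site, Gria1 was not called, and with regions of −log10 p of at least 10 its difference was reversed.

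Kainate receptor genes were divided. Grik2, Grik4 and Grik5 carried H3K4me3 and H3K27ac without H3K27me3, and Grik1 and Grik3 carried all 3. Grik5, an auxiliary subunit that needs Grik1, Grik2 or Grik3 to form a channel, had H3K27ac over 36.1% of its window in wild type and 39.1% in the mutant, and H3K4me3 over 38.6% and 39.5%. A start site of Zfp574 lies within the same window. Grik2 had 4.82 kb and 4.88 kb of H3K27ac, 6.07 kb and 7.12 kb of H3K4me1, 8.77 kb and 8.97 kb of H3K4me3, and 0 kb of H3K27me3 in both genotypes. Neither Grik2 nor Grik5 was called in any mark near its start sites. Grik1, the kainate subunit found in many interneurons, went from 1.63 kb to 2.78 kb of H3K27me3, from 2.67 kb to 4.18 kb of H3K4me3, from 1.19 kb to 1.79 kb of H3K27ac and from 2.03 kb to 2.52 kb of H3K4me1. It was called higher in H3K27me3 and H3K4me3. Grik1 and Grm6 were the 2 receptor genes called higher in H3K4me3 within 10 kb, against 1.71% of all genes, and none was called lower (0.0840%). Grik3, the low-affinity kainate subunit, is described with the factor peaks, since it carried more of them than any other receptor gene.

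Grid1, a delta receptor gene whose protein organises synapses with cerebellins, had both marks and H3K27ac in both genotypes. Grid1 had 6.92 kb of H3K27me3 in wild type against 7.42 kb in the mutant, 1.23 kb and 2.29 kb of H3K27ac, 3.14 kb and 3.16 kb of H3K4me1, and 4.90 kb and 6.05 kb of H3K4me3. Grid1 was thus called higher in H3K27ac. The difference at Grid1 was reversed over the whole gene, where H3K27ac measured 10.2 kb in wild type against 9.72 kb in the mutant.

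All 7 NMDA receptor genes had both H3K4me3 and H3K27me3 at the promoter, in both genotypes. Grin1, the subunit that every NMDA receptor needs, had the most kb of H3K27me3 within 10 kb of its start sites of any receptor gene: 16.6 kb in wild type against 18.3 kb in the mutant, or 39.1% and 43.1% of its window. It also had 4.98 kb and 5.21 kb of H3K4me3, 0.908 kb and 1.63 kb of H3K27ac, and 1.97 kb and 1.91 kb of H3K4me1. Start sites of Lrrc26 and Tmem210 lie within the same window. Grin2b, the glutamate-binding subunit that prevails before birth, had the most H3K27ac per window of the family. It had 5.36 kb of H3K27ac in wild type against 6.03 kb in the mutant, 6.85 kb and 8.06 kb of H3K4me3, 4.52 kb and 4.81 kb of H3K4me1, and 1.83 kb and 3.20 kb of H3K27me3. Grin2a, the subunit that replaces it after birth, had 5.58 kb and 6.32 kb of H3K27me3 and 3.77 kb and 3.84 kb of H3K4me3, and it had no H3K27ac near its start sites in wild type against 0.310 kb in the mutant. Measured as a share of the window, H3K27me3 covered 8.38% at Grin2b and 24.9% at Grin2a in wild type. Grin2c, a subunit of cerebellar granule cells, had 9.59 kb of H3K27me3 in wild type against 9.14 kb in the mutant, 2.15 kb and 3.08 kb of H3K4me3, 1.24 kb and 1.13 kb of H3K27ac, and 1.02 kb and 1.33 kb of H3K4me1. Its H3K27me3 was the largest share of any receptor gene's window, 44% in wild type. Its H3K27ac lay outside the promoter window, and the start site of Fdxr lies inside that window. Grin2d, a subunit of interneurons, had 5.76 kb and 6.76 kb of H3K27me3 with 3.28 kb and 3.48 kb of H3K27ac, and it shares its promoter window with Kdelr1. The glycine-binding subunits Grin3a and Grin3b had 2.75 kb and 2.25 kb of H3K27me3 in wild type, and 3.73 kb and 3.20 kb in the mutant. Only Grin3a of that pair had H3K27ac at the promoter.

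Of the metabotropic glutamate receptor genes, 7 of 8 had both marks in both genotypes. Grm3, a group II receptor that lowers cyclic AMP, had the largest difference in H3K27me3 in kb. Its H3K27me3 within 10 kb measured 2.89 kb in wild type against 8.38 kb in the mutant, 2.90 times as long, and its H3K27ac 0.652 kb and 1.67 kb. H3K4me1 measured 1.98 kb and 2.33 kb, and H3K4me3 2.38 kb and 3.10 kb. Over the whole gene, H3K27me3 covered 8.80 kb in wild type, in 13 regions, and 26.7 kb in the mutant, in 32 regions, of which 21 overlapped no wild-type region. The map of Grm3 places the added regions in the first part of the gene, between and beyond the wild-type ones. Grm3 was called higher in H3K27me3 under each of the 10 alternative settings tried.

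**Figure D2:**
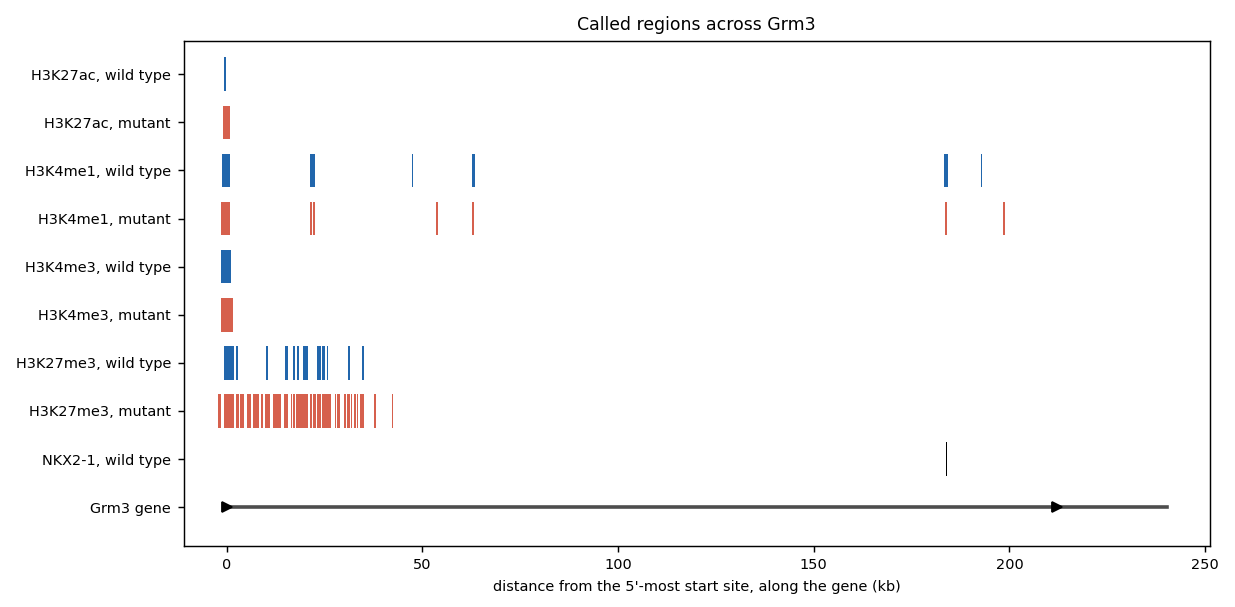
Called regions across Grm3 (horizontal axis, distance in kb from the upstream-most start site, along the gene). Blocks are called regions of each mark in wild type (blue) and mutant (red) and NKX2-1 peaks (black), and triangles are annotated start sites. Of the 32 mutant H3K27me3 regions, 21 overlap none of the 13 wild-type ones, and they lie between and beyond those.

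Grm4, a group III receptor of presynaptic terminals, had the most kb of H3K27ac within 10 kb of its start sites of any receptor gene. As a share of the window it came after Grik5 and Grik3 (36.1% and 33.7% in wild type), and over whole genes after Grik3 and Grik4. The window of Grik5 also holds a start site of Zfp574. Grm4 had 14.9 kb of H3K27ac in wild type against 16.2 kb in the mutant (29.7% and 32.3% of its window), 13.9 kb and 13.1 kb of H3K4me1, 3.95 kb and 5.32 kb of H3K4me3, and 1.27 kb and 2.37 kb of H3K27me3. It was called higher in H3K27me3, and the difference was -0.001 kb with regions of −log10 p of at least 10. Grm6, the receptor of retinal ON bipolar cells, had 5.81 kb and 5.80 kb of H3K27me3 with 1.63 kb and 2.70 kb of H3K4me3, and a start site of Zfp879 lies in its window. Grm2, Grm7 and Grm8, all receptors that lower cyclic AMP, had from 1.85 kb to 3.80 kb of H3K27me3 in wild type and from 1.61 kb to 4.62 kb in the mutant, with H3K27ac at the promoter in both.

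Grm5, a group I receptor coupled to calcium release, had no region of any mark within 10 kb of its annotated start sites. The nearest H3K4me3 region lay 15.4 kb upstream in wild type (chr7:94734708-94735572) and 14.9 kb upstream in the mutant. H3K27me3 was called over the same place in both genotypes (chr7:94734655-94735983 in wild type), and H3K27ac 17.7 kb upstream in wild type. No other protein-coding start site is annotated nearer to that H3K4me3 region than those of Grm5, at 15.8 kb. The region has both marks, like the promoters of the other metabotropic receptor genes, but Grm5 is counted without marks because the windows follow the annotation.

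The GABA-A receptor genes showed the widest spread of promoter marks, 7 of 16 with H3K27me3. Gabra2, Gabrb2 and Gabrg1 had H3K4me3 and H3K27ac without H3K27me3 in both genotypes. Gabra2, the alpha subunit of many immature receptors, had 2.08 kb of H3K27ac in wild type against 2.44 kb in the mutant. Gabrb2, a beta subunit of the common synaptic receptor, went from 3.09 kb of H3K27ac to 3.19 kb. Gabrg1 had 1.43 kb and 1.58 kb. Gabra4, Gabra5 and Gabrd, subunits of receptors outside the synapse, had H3K4me3 and H3K27me3 and no H3K27ac in wild type. Gabrd had 5.11 kb and 5.27 kb of H3K27me3 in a window of 20.1 kb, and Gabra5 4.15 kb and 4.80 kb in a window of 20 kb. Gabrb1 and Gabrg3, the latter with a start site of Gm9962 in its window, had both marks with H3K27ac, and short H3K27me3: 0.669 kb and 0.464 kb in wild type, and 1.41 kb and 1.08 kb in the mutant. Gabra6, the subunit of cerebellar granule cells, Gabrp, known from epithelia, and the retinal subunits Gabrr1, Gabrr2 and Gabrr3 had neither H3K4me3 nor H3K27me3 at the promoter in either genotype. H3K4me1 was called at the promoters of Gabrd and Gabrr3 in wild type alone (1.35% of all genes), at 0.256 kb and 0.367 kb, and at no receptor promoter in the mutant alone (1.2%).

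The GABA-A clusters differed in whether neighbours had the same marks. On chromosome 5, Gabrg1 and Gabra2 had no H3K27me3, while Gabra4 and Gabrb1, in the same cluster of 1387 kb, had it. On chromosome 7, Gabrg3 and Gabra5 had both marks, and on chromosome 4 Gabrr2 and Gabrr1 had neither.

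The GABA-B receptor pair was split. Gabbr1, the subunit that binds GABA, had H3K4me3 and H3K27ac and no H3K27me3 at the promoter. It had 8.41 kb of H3K27ac in wild type against 9.96 kb in the mutant, 9.69 kb and 9.67 kb of H3K4me1, 7.98 kb and 9.76 kb of H3K4me3, and 0 kb and 0.250 kb of H3K27me3. Gabbr2, the subunit that couples to the G protein, had 5.22 kb and 6.06 kb of H3K27me3, 3.03 kb and 3.14 kb of H3K4me3, and no H3K27ac within 10 kb in either genotype. The subunits of a receptor that needs both thus differed in promoter H3K27ac and H3K27me3 in the same tissue.

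**Figure D3:**
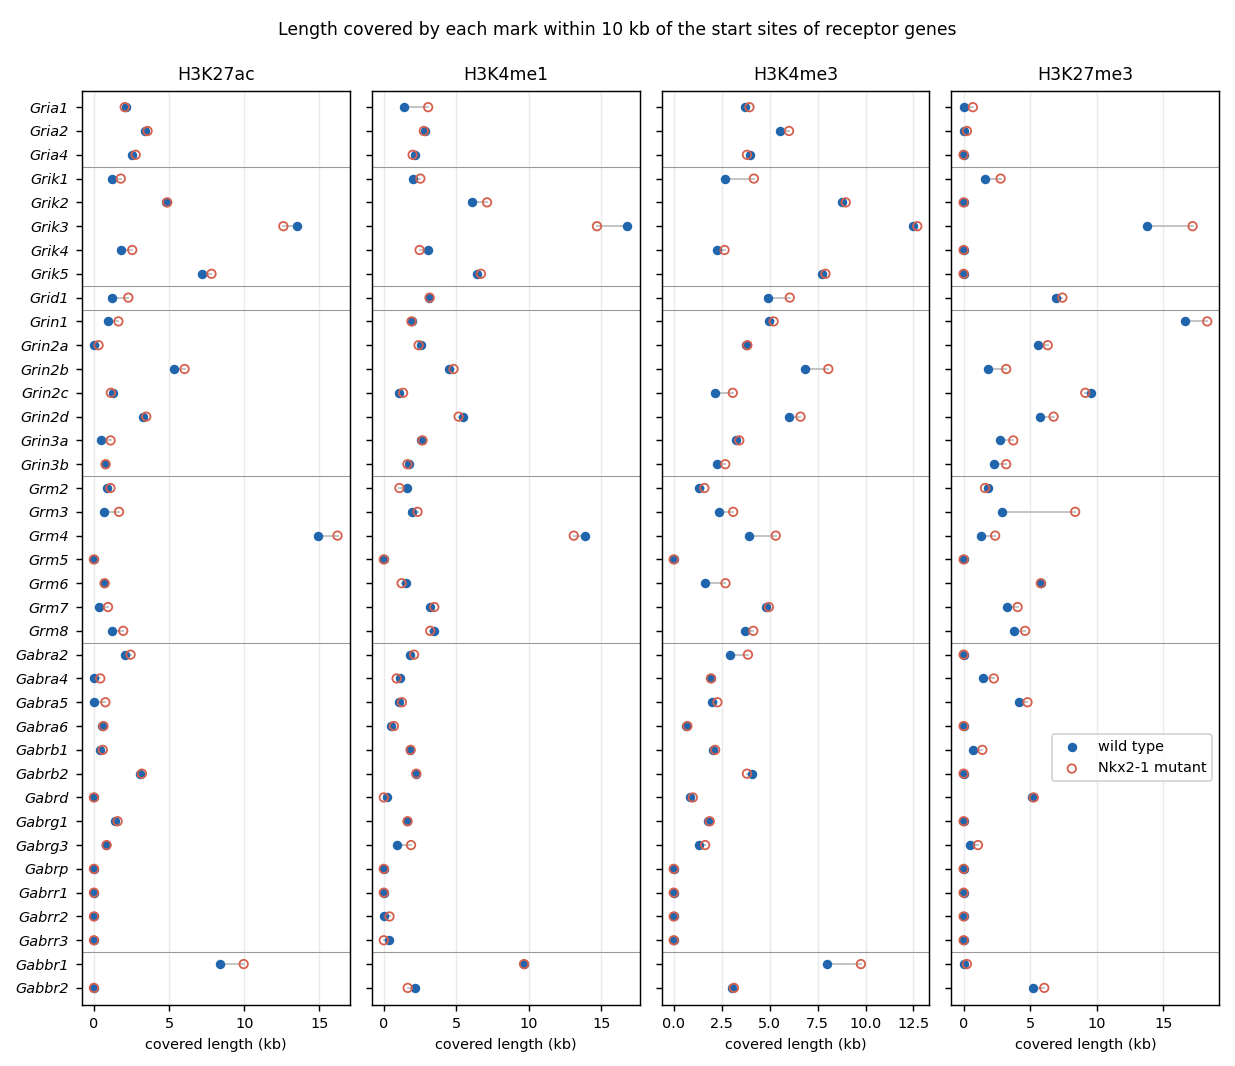
Length (kb) covered by each mark within 10 kb of the start sites of each of 38 receptor genes, in wild type (filled) and mutant (open), 1 panel per mark; lines separate the families. In kb, Grin1 has the longest H3K27me3 and Grm4 the longest H3K27ac, and the line of Grm3 in the H3K27me3 panel runs from 2.89 to 8.38.

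Comparing the genotypes across the receptor genes, differences ran mostly toward longer regions in the mutant. H3K27ac within 10 kb was longer in the mutant at 33 of 43 receptor genes (76.7%, against 45.7% of all genes) and shorter at 3 (6.98%, against 22%). H3K27me3 was longer at 26 (60.5%, against 27%) and shorter at 3 (6.98%, against 4.62%). H3K4me3 was longer at 34 (79.1%, against 65.8%) and shorter at 4 (9.3%, against 7.12%), and H3K4me1 longer at 21 (48.8%, against 37.2%) and shorter at 18 (41.9%, against 37.4%). These shares count genes without the mark, and receptor genes carried each mark more often than all genes did. Among genes with the mark in either genotype, H3K27me3 was longer at 89.7% of 29 receptor genes against 85.1% of all, H3K4me3 at 89.5% of 38 against 90.1%, and H3K4me1 at 52.5% of 40 against 49.8%. Those shares lay near the background, while for H3K27ac they were 91.7% of 36 against 67.4%. The median H3K27ac difference was 0.205 kb over the 43 receptor genes and 0 kb over all genes. Receptor genes are longer, and their windows had a median of 26.1 kb against 20.1 kb. No share over genes of similar length was computed for these windows. More regions were called in the mutant for every mark, and lengths summed over all genes were 1.06 times (H3K27ac), 1.01 times (H3K4me1), 1.12 times (H3K4me3) and 1.2 times (H3K27me3) those of wild type. The sums over receptor genes were 1.16, 1.01, 1.11 and 1.26 times. Fewer receptor genes passed the size rule. In H3K27me3, 5 of 43 were called higher, against 3.89% of all genes, among them Grik1, Grin2b, Grm3 and Grm4, and none lower (0.215%). Counting only genes with H3K27me3 in either genotype, 5 of 29 receptor genes were called higher, against 834 of 6790 over all genes. In H3K27ac, Grid1 and Grm3 were called higher, against 2.32%, and none lower (1.07%). With mutant lengths divided by the ratio over all genes, 2 receptor genes were called higher in H3K27me3 and 0 in H3K27ac or H3K4me3, and 1 was called lower in H3K4me3. Grm3 was among the 2 that remained in H3K27me3, and it also remained when the rule was set at 2 times. With regions of −log10 p of at least 10, only Grm3 of the 5 remained.

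H3K27ac appeared at 4 receptor promoters in the mutant alone, those of Gabra4, Gabra5 and Grin2a among them, against 2.56% of all genes, and at none in wild type alone (0.635%). All 4 were among the 9 receptor genes that had H3K4me3 and H3K27me3 without H3K27ac in wild type, a state in which 25.2% of all genes gained promoter H3K27ac. The added regions were short, 0.310 kb at Grin2a, 0.424 kb at Gabra4 and 0.763 kb at Gabra5. Their folds, in the same order, were 3.05, 3.52 and 4.10, above only 2.24%, 13.8% and 32.1% of mutant H3K27ac regions. H3K27me3 stayed on all 4 promoters in the mutant. The other 5 genes of that state, Gabbr2, Gabrd, Grin2c, Grin3b and Grm6, had no promoter H3K27ac in either genotype. H3K4me3 marked the same 37 promoters in both genotypes, while 1.34% of all genes had it in the mutant alone and 0.112% in wild type alone.

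Over whole genes, H3K27ac was the mark with the most calls. Over the whole gene with 10 kb flanks, 10 of 43 receptor genes were called higher in the mutant (4.18% of all genes) and none lower (1.69%). The 10 were among the 24 genes of at least 100 kb, and among all genes of that length 17.4% were called higher and 5.04% lower. In 106 of the 283 mutant H3K27ac regions in receptor genes (37.5%, against 29.6% of all autosomal regions) no wild-type region overlapped, and 33 of 218 wild-type regions (15.1%, against 19.6%) had none in the mutant. Grik4, an auxiliary kainate subunit, had 24.6 kb of H3K27ac in wild type against 38.2 kb in the mutant, with 21 added regions and 0 lost. Grm7, a presynaptic receptor, had 1.82 kb and 6.71 kb. Also among the 10 were Gabbr2 (5.45 kb and 8.71 kb), Gabra5 (0.548 kb and 2.51 kb), Grik1 (4.47 kb and 8.37 kb), Grin2a (1.85 kb and 2.94 kb), Grm3 and Grm8 (1.2 kb and 2.57 kb). In the 10 genes called no wild-type H3K27ac region was without a mutant counterpart, but the size rule itself favours genes that lost little. After division by the ratio over all genes, 6 were called, and at 2 times instead of 1.5 times, 5. Grin2a and Grm3 were not called without the flanks, and with regions of −log10 p of at least 10 the difference at Grin2a was reversed.

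**Figure D4:**
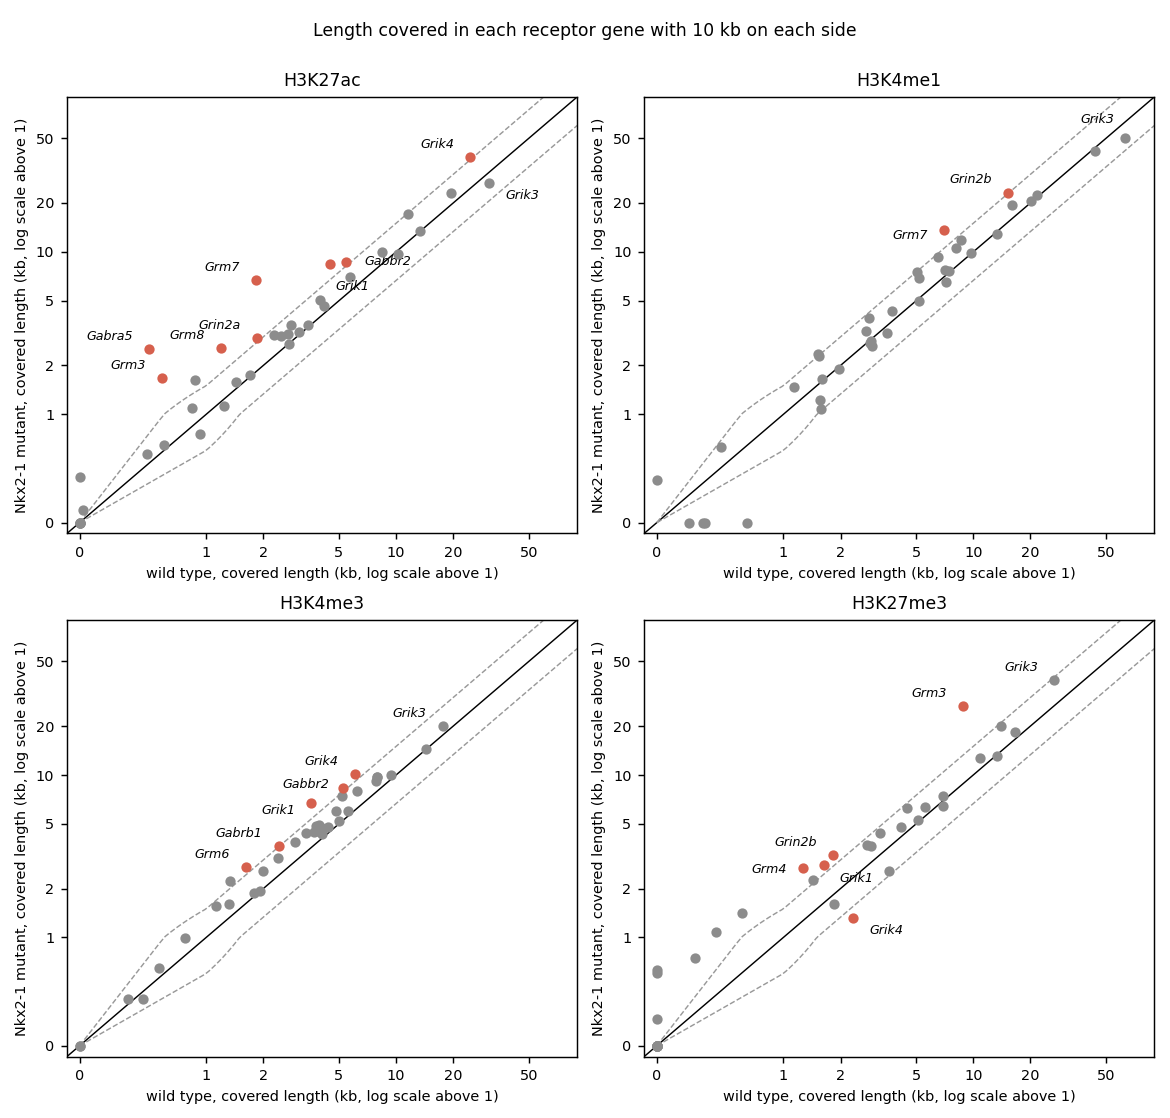
Length covered by each mark over each of 38 receptor genes with 10 kb on each side, wild type (horizontal) against mutant (vertical), in kb, on axes that are logarithmic above 1 kb. Red genes passed the size rule, the solid line is equality and the dashed lines are 1.5 times; in the H3K27ac panel all 8 red genes lie above the upper dashed line.

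The other marks gave fewer calls over whole genes. H3K4me1 was called higher in 3 of 43, against 2.77%, among them Grin2b (15.2 kb and 23.2 kb) and Grm7 (7 kb and 13.7 kb), and lower in none (1.37%). H3K4me3 was called higher in Gabbr2, Gabrb1, Grik1, Grik4 and Grm6, 5 of 43 against 3.46%, and lower in none (0.0840%). H3K27me3 was called higher in the same 5 genes as near the start sites (5.21%) and lower in Grik4, at 2.33 kb and 1.32 kb (0.378%). Over all genes of at least 100 kb, 11.8% were called higher and 1.27% lower in H3K4me1, 15.9% and 0.0877% in H3K4me3, and 19.6% and 1.71% in H3K27me3. After division by the ratio over all genes, 2 receptor genes were called higher in H3K4me1, 1 higher and 1 lower in H3K4me3, and 2 higher and 2 lower in H3K27me3. At 2 times, 0 were called higher in H3K4me1 or H3K4me3, and 3 in H3K27me3, with 0 lower in each mark. With regions of −log10 p of at least 10, the H3K27me3 of Grik4 was longer in the mutant, by 0.966 kb.

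NKX2-1 peaks were not more frequent near receptor genes than near other genes. Within 50 kb of a start site, 8 of 43 receptor genes had an NKX2-1 peak, against 28.9% of all genes, among them Gabbr1, Grik3, Grik5, Grin2c, Grin2d, Grin3b and Grm3. No receptor gene had an LHX6 peak in that range (2.99%), and 3 had one within 100 kb. Several of the 11 NKX2-1 peaks stood nearer to another gene, such as Zfp574 for Grik5, Tmem143 for Grin2d, Cnn2 for Grin3b, Nat9 for Grin2c and Mog for Gabbr1. Within whole genes with flanks, 9 receptor genes had an NKX2-1 peak (17.6% of all genes) and 4 an LHX6 peak (2.40%), among them Gabrg3, Grik2 and Grik3. Those shares follow gene length in part: of the 24 long receptor genes 7 had an NKX2-1 peak, against 40.6% of all genes of that length, and 4 an LHX6 peak, against 13.2%. An NK2 core was in 5 of the 11 windows near receptor genes, and a LIM core in 4 of the 5 LHX6 windows in or near them, beside the shares over all peaks given with the sequences.

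Grik3 held 6 NKX2-1 and 2 LHX6 peaks in the gene with its flanks, and it had the most kb of H3K4me1 and H3K4me3 near its start sites of any receptor gene. As a share of the window, H3K4me3 covered more at Grik5 (38.6%, window shared with Zfp574) and Grin2b (31.4%) than at Grik3 (31.1%). Near its start sites it had 13.5 kb of H3K27ac in wild type against 12.6 kb in the mutant, 16.8 kb and 14.7 kb of H3K4me1, 12.5 kb and 12.7 kb of H3K4me3, and 13.8 kb and 17.2 kb of H3K27me3. Each mark covered between 31.1% and 41.9% of its window in wild type. Over the whole gene, H3K27ac measured 31.0 kb and 26.6 kb, H3K4me1 63.2 kb and 50.3 kb, and H3K27me3 26.7 kb and 38.2 kb. None of these passed the size rule. H3K27ac and H3K4me1 were shorter in the mutant, as at 5 and 17 of the 43 receptor genes over whole genes, and H3K27me3 was longer, as at 27. Of 55 wild-type H3K4me1 regions 13 had no mutant counterpart, and 10 of 22 mutant H3K27me3 regions had no wild-type one. An NKX2-1 peak 1.21 kb from the first start site (chr4:125169157-125169427, fold 3.43) lay under all 4 marks in both genotypes and overlapped regions in 9 of the 10 lists. The strongest lay 54.2 kb inside the gene (chr4:125222192-125223234, fold 7.60), overlapped an LHX6 peak, and held no core in its window. A second pair, at chr4:125281705-125282025 for NKX2-1 (fold 3.88) and chr4:125281695-125282060 for LHX6 (fold 7.33), was in an intron and its window held a LIM core and no NK2 core. There the 1698 bases of wild-type H3K4me1 (chr4:125280794-125282491) were absent from the mutant, and no H3K27ac was called in either genotype.

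**Figure D5:**
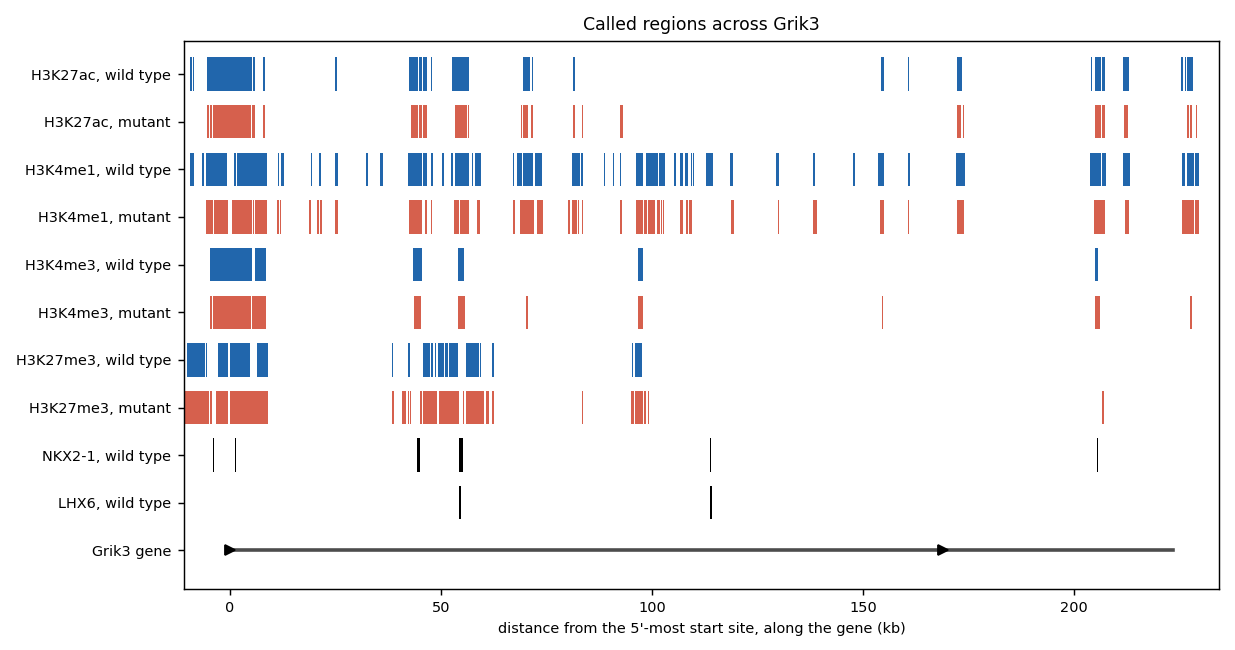
Called regions across Grik3 (horizontal axis, distance in kb from the upstream-most start site, along the gene). Blocks are called regions in wild type (blue) and mutant (red), black blocks are factor peaks, and triangles are annotated start sites. The second place where NKX2-1 and LHX6 peaks coincide has H3K4me1 called in wild type but not in the mutant, and none of the other marks.

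That site of Grik3 was among the 2 of 13 H3K4me1 regions with a factor peak in receptor genes that were absent from the mutant, against 9.84% of all 4320 such regions. Of 10 H3K27ac regions with a factor peak, 1 was absent, in an intron of Grid1 (NKX2-1 peak chr14:36057914-36058248), against 12.1%. Some other factor peaks overlapped no mark. The LHX6 peaks of Gabrg3 (chr7:64445136-64445398, fold 4.63) and Grik2 (chr10:49434772-49435063, fold 6.18) overlapped no mark in either genotype, and their windows held 1 and 2 LIM cores. The NKX2-1 peak of Grm3 (chr5:9541297-9541683, fold 4.04), with 2 LIM cores, overlapped H3K4me1 in both genotypes and lay 184 kb into the gene, while H3K27me3 in the mutant ended at 42.4 kb.

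Partner genes of the receptors, from a list of auxiliary subunits, scaffolds, ligands, chloride transporters and glycine receptors, were measured the same way. Of 35 matched genes, 23 had promoter H3K27me3 in wild type and 25 in the mutant, against 21.4% and 24.3% of all genes. H3K27ac marked 32 and 34 of them (58.6% and 60.5% of all genes), and H3K4me3 all 35 in both (65.9% and 67.1%). H3K27me3 was called higher at 7 and lower at 0, against 3.89% and 0.215% of all genes, among them the AMPA receptor auxiliary subunit Cacng4 (0.290 kb and 1.63 kb) and the scaffolds Shank3 (2.68 kb and 4.31 kb) and Dlg2 (3.15 kb and 5.08 kb). The shares over all genes include genes without the mark. Of the 6790 genes with H3K27me3 in either genotype, 834 were called higher. H3K27ac was called at none in either direction (2.32% higher and 1.07% lower over all genes). H3K4me3 was called higher at 1 (1.71%) and lower at 1 (0.0840%), Cacng3 (3.64 kb and 2.20 kb), and H3K4me1 lower at 1 (1.10%), Cacng2 (3.12 kb and 1.96 kb). Both are transmembrane AMPA receptor regulatory proteins.

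The lists rest on 26.8 M to 89.1 M tags per library after removal of duplicates. H3K27ac marked the promoters of 9 of 9 MGE marker genes, 1 of 6 pallial neuron, 1 of 3 microglial and 0 of 3 endothelial and blood markers in wild type, and 9, 1, 0 and 0 in the mutant. Of oligodendrocyte lineage markers 4 of 4 had it in wild type and 3 in the mutant, and of astrocyte markers 1 and 2 of 3. The summed H3K27ac within 10 kb of the MGE markers fell from 125 kb to 97.0 kb in the mutant, while that of the receptor genes went from 93.0 kb to 108 kb. Over the 6 pallial neuron markers, H3K4me3 went from 18.7 kb to 26.2 kb, with 2 called higher, and H3K27ac from 3.37 kb to 4.48 kb, with 1 called higher. H3K4me3 was also longer over 4 Hox genes taken as a silent set (2.76 kb and 4.89 kb, 0 called). The same held for endothelial and blood (0.373 kb and 1.66 kb), astrocyte (2.08 kb and 3.01 kb) and oligodendrocyte lineage markers (23.3 kb and 24.6 kb). It was shorter over MGE markers (129 kb and 109 kb) and microglial markers (4.80 kb and 4.69 kb). The part of cell composition in the receptor results was not tested. Around Nkx2-1 itself H3K27ac measured 12.6 kb and 9.56 kb, which does not check the deletion.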

How the data were processed

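The data are called regions of ChIP-seq libraries of mouse embryos at embryonic day 13.5, grouped by antibody and genotype per the labels. Of 20 samples, the 10 with a deposited list were used (2 factors, 4 marks in 2 genotypes), and the 10 input and IgG samples were not analysed here. The submitters' processing notes name BWA 0.6.2, MACS2 2.1.0, bcl2fastq 1.8.4, CASAVA 1.8.2 and the mm9 build. Per the file headers, the authors called regions over input with MACS 2.1.0.20140616 and a p-value limit of 1.00e-05, extended tags to 250 bases, kept 1 tag per position, split regions by summit and switched local background off. One input served H3K4me3 and another the remaining marks of each genotype, again per the file headers. Deposited columns are the pileup (a signal of extended tags at the summit), the −log10 p-value, the fold enrichment (a ratio to input) and a −log10 q-value. The last was not used, because q-values are said there not to have been calculated. Fold and −log10 p were used only within a list.

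Lines that share start and end were treated as 1 region, with its strongest summit. Genes, start sites and sequences came from GENCODE vM1 on NCBIM37 (21418 autosomal protein-coding genes, 67194 start sites), and coordinates count from 1. Covered lengths were computed with Python 3.11.15 and numpy 2.4.6 and tested on simulated data (300 windows, 0 mismatches). Figures used matplotlib 3.10.9. A mark or peak belonged to a window that it overlapped by at least 1 base. With 1 library per group no p-value can be given, so a call is a rule of size and describes these libraries only.

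Of the 43 receptor genes, 5 are counted but not reported by name here, and each of the other 38 is named. All lists are given for those named genes that were called in H3K27ac or H3K27me3 within 10 kb, with an LHX6 peak within 50 kb or an NKX2-1 peak within 2.5 kb, and for the 3 with the longest wild-type cover of each mark. Other genes and regions were named after their values were seen. The receptor genes and lists were chosen with earlier results of these data known. Whole-gene windows, the count of promoters with both marks and the turnover of regions were added after seeing the data. Kctd12 and Gata1 had no match among the genes used.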

Additional observations from a re-analysis of the deposited data

How the results depend on the processing

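The number of receptor promoters with each mark, and with H3K4me3 and H3K27me3 together, stayed within 1.5 times of the reported count with a distance of 1 kb, regions of −log10 p of at least 10, at least 500 bases covered, or start sites of protein-coding transcripts only. The genes with both marks numbered 24 to 26 in wild type and 25 to 28 in the mutant. No paired analysis was possible because each antibody and genotype has 1 list.

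Counts of genes passing the size rule within 10 kb depended on the settings. One span from first to last start site gave 6 higher in H3K27ac, 4 higher in H3K4me3 and 1 lower in H3K27me3, and reversed Grid1 in H3K27ac (-0.457 kb). Windows of 5 kb gave 0 higher in H3K4me1 and 1 in H3K4me3, and windows of 25 kb gave 6 higher and 1 lower in H3K27ac and 2 higher in H3K4me1. Regions of −log10 p of at least 10 gave 3 higher and 4 lower in H3K4me1 and 3 higher in H3K27me3, and reversed Gria1 in H3K4me1 (-1.01 kb) and Grm4 in H3K27me3 (-0.001 kb). Scaling to the total over all genes gave 0 higher in H3K27ac, 0 higher and 1 lower in H3K4me3 and 2 higher in H3K27me3. A call at 2 times gave 1 higher in H3K27ac, 0 in H3K4me3 and 2 in H3K27me3, and one at 0.5 kb gave 8 in H3K27ac, 2 in H3K4me1 and 10 in H3K27me3. The whole gene gave 10 higher in H3K27ac, 3 in H3K4me1 and 5 in H3K4me3 and 1 lower in H3K27me3, and reversed Grid1 (-0.457 kb).

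For whole genes, leaving out the flanks gave 1 lower in H3K4me3. Regions of −log10 p of at least 10 gave 6 higher in H3K4me1 and 0 lower in H3K27me3, and reversed Grin2a in H3K27ac (-0.559 kb), Grik4 (0.966 kb) and Grm4 (-0.001 kb) in H3K27me3. Scaling gave 6 higher in H3K27ac, 1 higher and 1 lower in H3K4me3, and 2 higher and 2 lower in H3K27me3. A call at 2 times gave 5 higher in H3K27ac, 0 in H3K4me1, 0 in H3K4me3 and 3 in H3K27me3, with 0 lower in H3K27me3. NKX2-1 peaks lay within 20 kb of 5 receptor genes, and LHX6 peaks within 100 kb of 3. The cause of these differences was not tested.

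Each mark and genotype rests on 1 list, and no signal under the authors' p limit was analysed here, so a mark called in 1 genotype alone is a statement about that limit. Marks farther than 10 kb from an annotated start site, such as those upstream of Grm5, are not counted near the gene.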
